A study of Mus musculus with 6 samples.

Results

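The genes described are those of the vascular endothelial growth factor (VEGF) system: the receptor genes Kdr, Flt1 and Flt4, the neuropilin genes Nrp1 and Nrp2, and the ligand genes Vegfa, Vegfb, Vegfc and Pgf. They were taken by gene symbol from the deposited expression table, where 9 of 9 were found among 56691 genes. The libraries were made from liver cells labelled as Kupffer cells, macrophages that reside along its blood channels. All 6 came from mice of the genotype Vil1Cre-Myd88fl/fl, in which the villin promoter drives Cre in intestinal epithelium and so removes a floxed Myd88 there, also in the controls. The untreated group and the group treated with 5-HT (serotonin) held 3 libraries each. Neither the labels nor the series text state the dose, route or time of 5-HT, the age of the mice, how cells were isolated or how many animals gave a library. P-values therefore describe the spread between libraries, some of which may be technical. Replicate 2 stood apart in each group: the chi-square per degree of freedom between counts of library pairs was 6.98 for untreated replicates 1 and 3, while untreated replicate 2 differed from these by 25.5 and 30.0. It was 25.9 for treated replicates 1 and 3, from which treated replicate 2 differed by 40.0 and 63.2. Calls among the VEGF genes without either library were those of all 6, except that Nrp2 was added without treated replicate 2.

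VEGF ligands are secreted dimers that bind receptor tyrosine kinases on endothelial cells. VEGF-A binds VEGFR2, the product of Kdr and the main signalling receptor of blood vessel endothelium, and VEGFR1, the product of Flt1, which binds it tightly with weak kinase activity and also binds VEGF-B and placental growth factor (Pgf). VEGF-C binds VEGFR3, the product of Flt4, which is best known from lymphatic endothelium and is also made by the sinusoidal endothelium of the liver. Neuropilins are co-receptors: Nrp1 is known as a partner of VEGFR2 and Nrp2 as a partner of VEGFR3, and both also bind class 3 semaphorins together with plexins. In the liver the sinusoidal endothelial cells that line the blood channels lie next to Kupffer cells and depend on VEGF signals for their specialised state.

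The promoter sequences of the 3 genes that passed the test below are shown because the genes moved in different directions: Kdr and Nrp1 fell and Vegfc rose. Each is the 250 bases before the RefSeq transcription start in build GRCm38.p6, written in the direction of the gene. Capitals mark the GC box (GGGCGG, either strand) and, in Kdr, the ETS core (CCGGAA, either strand), which lies at position -153 from the start.
Kdr, chr5:75978456-75978705, minus strand: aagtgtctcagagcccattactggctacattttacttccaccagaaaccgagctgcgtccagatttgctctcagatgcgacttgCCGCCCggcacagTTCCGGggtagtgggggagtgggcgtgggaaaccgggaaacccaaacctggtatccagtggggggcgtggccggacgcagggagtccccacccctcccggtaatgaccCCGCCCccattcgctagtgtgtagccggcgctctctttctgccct
Nrp1, chr8:128358823-128359072, plus strand: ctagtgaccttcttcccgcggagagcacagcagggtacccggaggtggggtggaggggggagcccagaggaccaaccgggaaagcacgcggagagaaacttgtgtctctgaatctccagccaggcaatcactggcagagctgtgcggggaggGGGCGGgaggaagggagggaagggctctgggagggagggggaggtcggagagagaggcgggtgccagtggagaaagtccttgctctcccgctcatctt
Vegfc, chr8:54077282-54077531, plus strand: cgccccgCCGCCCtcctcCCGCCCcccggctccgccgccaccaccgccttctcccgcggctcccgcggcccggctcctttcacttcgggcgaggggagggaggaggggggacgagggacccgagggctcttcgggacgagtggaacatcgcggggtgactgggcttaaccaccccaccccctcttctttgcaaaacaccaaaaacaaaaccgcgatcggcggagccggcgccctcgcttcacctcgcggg
GC boxes numbered 2 in Kdr, 1 in Nrp1 and 2 in Vegfc, against at least 1 in 32.7% of the 32851 mouse promoter windows of that length. The ETS core is present in 12.0% of the windows. A TATA box (TATAAA) and the hypoxia response core (ACGTG) had no match in these 3 windows, and they occur in 12.4% and 16.6% of all windows. GC content was 61.6% in Kdr, 64.4% in Nrp1 and 71.6% in Vegfc, against a median of 52.4% over all windows. The VEGF genes that did not pass the test also held GC boxes: 3 in Flt1, 3 in Flt4, 5 in Nrp2 and 4 in Vegfb. Vegfa and Pgf have more than 1 window, with 2 and 1 GC boxes in Vegfa and 2 and 0 in Pgf. The GC content of all these windows ran from 59.2% to 76.4%, so neither trait was particular to the called genes.

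With 5-HT, the VEGF system of these libraries changed in part. Vegfc rose 2.34-fold, Kdr fell 1.71-fold and Nrp1 fell 1.86-fold, and the other 6 genes did not pass an adjusted p of 0.05 in edgeR's quasi-likelihood test. All 9 genes had counts high enough to be tested, among 16641 tested genes. Over all tested genes 4.55% were called higher and 3.19% lower, against 1 and 2 of the 9 VEGF genes; in either direction it was 7.74% against 3 of 9. The median log2 change was -0.29 over the 9 genes and -0.02 over all tested genes. FPKM groups did not overlap for 4 of the 9 genes (Kdr, Nrp1, Nrp2 and Vegfc), against 29.6% of all tested genes.

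**Figure D1:**
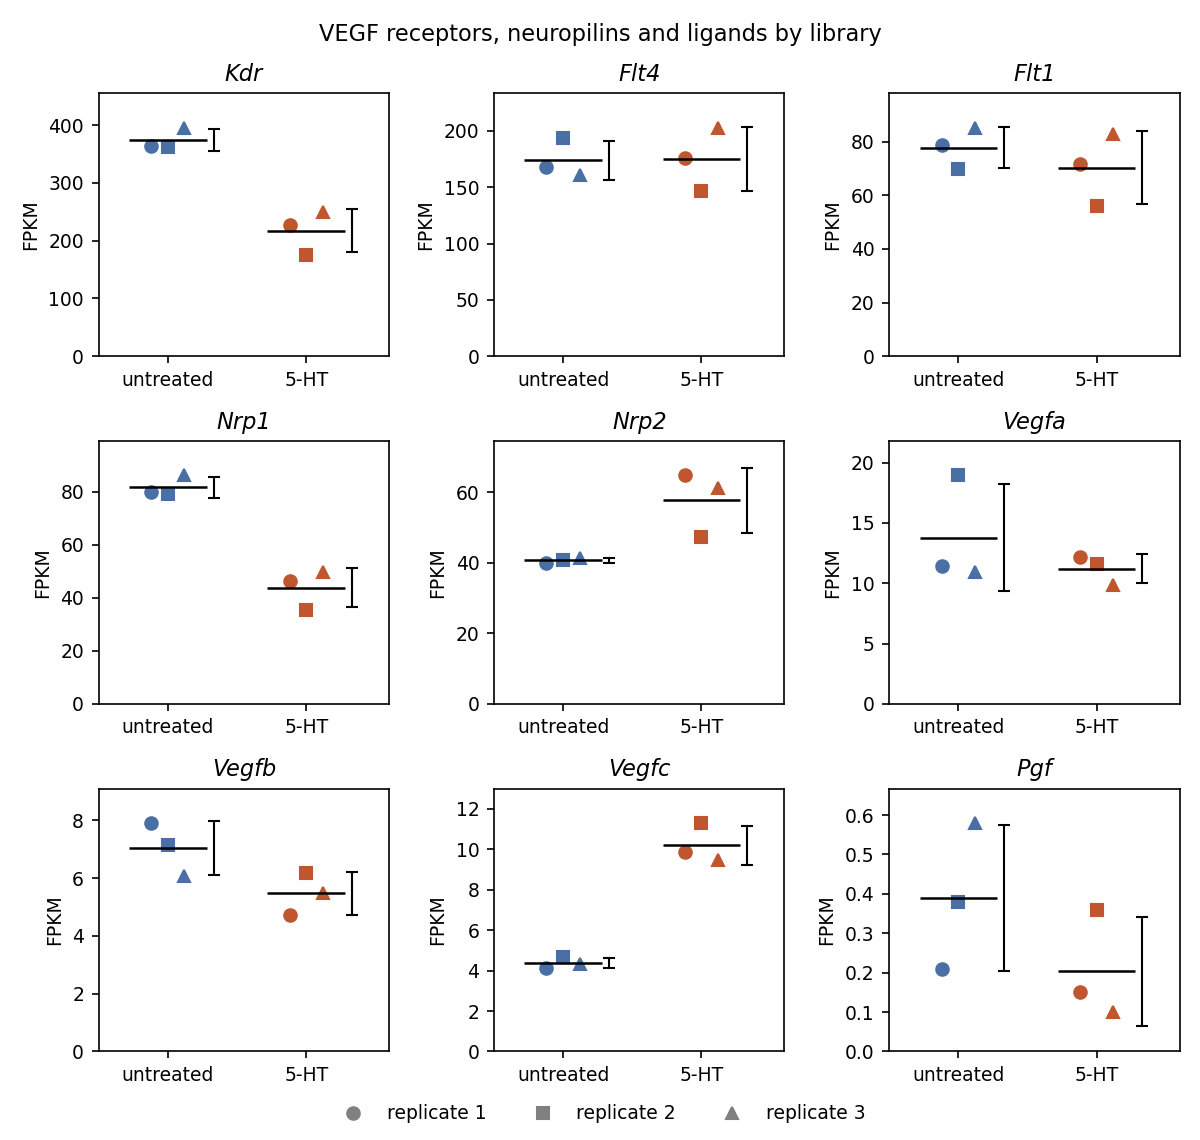
FPKM of each gene in the 3 untreated (blue) and 3 5-HT treated (orange) libraries; symbols give the replicate number, lines the group mean and error bars the SD. Kdr and Nrp1 are lower and Vegfc and Nrp2 higher in every treated library, with Kdr at 175.7 to 248.9 FPKM against 362.6 to 395.3.

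Kdr was the most abundant of the 9 genes and ranked 86th by mean FPKM among the tested genes. FPKM is the number of fragments per kilobase of a gene's exons, scaled to the counts of the library. Kdr had 363.6, 362.6 and 395.3 FPKM in untreated replicates 1 to 3 and 227.6, 175.7 and 248.9 FPKM in treated replicates 1 to 3. The untreated libraries lay close together, and every treated library was below them. The group means were 373.8 ± 18.6 and 217.4 ± 37.6 FPKM (SD, n = 3 each), a log2 change of -0.78 (SE 0.15, edgeR adjusted p = 0.026). The interval of the change at 95% ran from 0.456 to 0.748 of the untreated level. The call was lost in fits without untreated replicate 1, untreated replicate 3 or 5-HT treated replicate 1 (edgeR adjusted p = 0.0956, 0.111 and 0.0942), where the log2 change was -0.80, -0.72 and -0.81. Kdr is annotated on the minus strand of chromosome 5 from 75932827 to 75978458 (GRCm38, as for all positions here).

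Flt4 was the second receptor by level, at 167.9, 193.3 and 160.7 FPKM in untreated replicates 1 to 3 and 175.9, 146.4 and 202.8 FPKM in treated replicates 1 to 3. The groups overlapped, and their means were 174.0 ± 17.1 and 175.0 ± 28.2 FPKM (SD, n = 3 each). The log2 change was 0.02 with a 95% interval from -0.32 to 0.36 (edgeR adjusted p = 0.96), which leaves changes of up to 1.28-fold upward within the interval. Flt4 lies on chromosome 11 from 49609263 to 49652739, plus strand.

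Flt1 was at 78.6, 69.7 and 85.2 FPKM in untreated replicates 1 to 3 and at 71.8, 55.9 and 83.0 FPKM in treated replicates 1 to 3. Its groups overlapped as well, with 5-HT treated replicate 2 the lowest library for all 3 receptors. The log2 change was -0.14 (95% interval -0.54 to 0.25, edgeR adjusted p = 0.67). Counts are per gene, so the soluble form of VEGFR1, a decoy made from the same gene (chromosome 5 from 147561604 to 147726011, minus strand), cannot be told apart from the membrane form.

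Nrp1 and Nrp2 changed places in rank. Nrp1 was at 79.8, 79.2 and 86.2 FPKM in untreated replicates 1 to 3 and at 46.3, 35.5 and 49.9 FPKM in treated replicates 1 to 3. Every treated library was below every untreated one, and the means were 81.75 ± 3.9 and 43.9 ± 7.48 FPKM (SD, n = 3 each), a log2 change of -0.89 (SE 0.15, edgeR adjusted p = 0.0133). The call was lost without the same 3 libraries as that of Kdr, where the adjusted p was 0.0596, 0.0702 and 0.0521 and the log2 change -0.91, -0.84 and -0.93. Nrp1 lies on chromosome 8 from 128358604 to 128503363, plus strand.

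Nrp2 had 39.9, 40.8 and 41.4 FPKM in untreated replicates 1 to 3 and 64.8, 47.3 and 61.1 FPKM in treated replicates 1 to 3. The treated libraries were all above the untreated ones, and 5-HT treated replicate 2 was the nearest to them. The means were 40.7 ± 0.756 and 57.7 ± 9.25 FPKM (SD, n = 3 each), a log2 difference of 0.51 (SE 0.13) that missed the threshold (edgeR adjusted p = 0.0611). The difference was past the threshold with no filter on low counts (adjusted p = 0.0352), with DESeq2 (adjusted p = 0.00349) and without 5-HT treated replicate 2 (edgeR adjusted p = 0.0116). Nrp2 lies on chromosome 1 from 62703285 to 62818695, plus strand.

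Vegfc was the ligand that rose. It had 4.13, 4.66 and 4.35 FPKM in untreated replicates 1 to 3, from 184, 208 and 203 reads, and 9.84, 11.3 and 9.48 FPKM in treated replicates 1 to 3, from 385, 426 and 397 reads. Both groups were tight and far apart. The means were 4.38 ± 0.266 and 10.2 ± 0.964 FPKM (SD, n = 3 each), a log2 change of 1.23 (SE 0.12, edgeR adjusted p = 0.00235), with a 95% interval from 1.92-fold to 2.85-fold. The call held in 15 of 15 alternative fits, where the adjusted p did not exceed 0.0221. Vegfc lies on chromosome 8 from 54077606 to 54187096, plus strand.

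Vegfa, the ligand of VEGFR2 and VEGFR1, was at 11.5, 18.9 and 11.0 FPKM in untreated replicates 1 to 3 and at 12.2, 11.6 and 9.88 FPKM in treated replicates 1 to 3. Untreated replicate 2 stood above the other libraries, which lay close together in both groups. The log2 difference was -0.29 (SE 0.20, 95% interval -0.76 to 0.19, edgeR adjusted p = 0.443), and without untreated replicate 2 it was -0.01. Splice forms of VEGF-A, which differ in their binding to matrix, share this gene (chromosome 17 from 46016993 to 46032369, minus strand) and were not separated.

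Vegfb, the ligand of VEGFR1 alone among the receptors, was at 7.91, 7.14 and 6.08 FPKM in untreated replicates 1 to 3 and at 4.72, 6.19 and 5.50 FPKM in treated replicates 1 to 3. The groups overlapped by 1 library on each side, and the log2 difference of -0.36 (SE 0.17, 95% interval -0.76 to 0.05) did not pass (edgeR adjusted p = 0.262). Vegfb lies on chromosome 19 from 6982473 to 6987651, minus strand.

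Pgf was close to the floor of detection, with 11, 20 and 32 reads in untreated replicates 1 to 3 and 7, 16 and 5 reads in treated replicates 1 to 3. These counts gave 0.21 to 0.58 FPKM untreated and 0.1 to 0.36 FPKM treated, and the groups overlapped. Its log2 difference of -0.94 had a 95% interval from -2.31 to 0.43 (edgeR adjusted p = 0.38), so both directions lie within the interval. Pgf lies on chromosome 12 from 85166635 to 85177790, minus strand. Vegfd, the remaining VEGF ligand gene, was at 1.67 ± 0.385 and 1.27 ± 0.517 FPKM (SD, n = 3 each; edgeR adjusted p = 0.551).

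**Figure D2:**
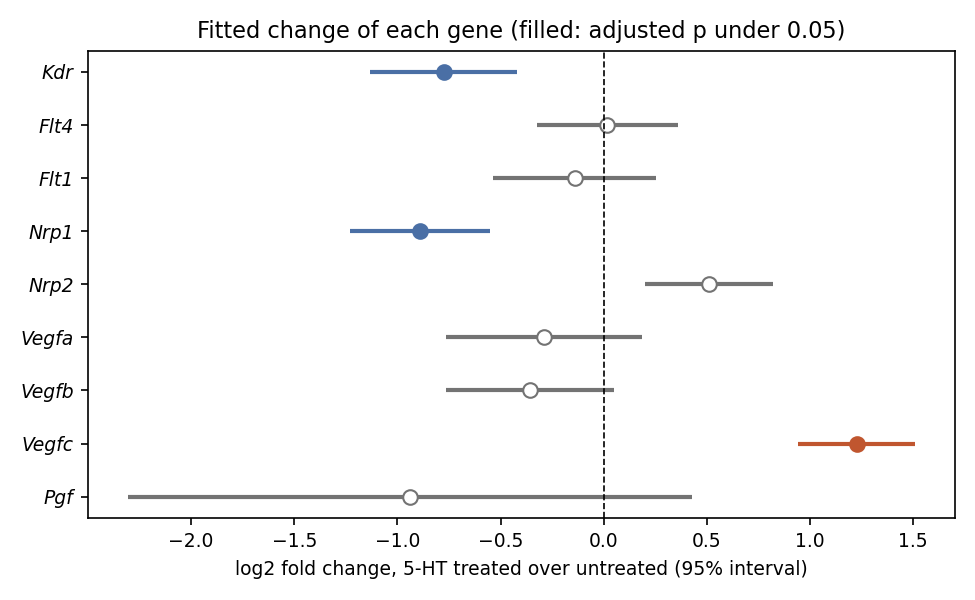
Log2 fold change of 5-HT treated over untreated with its 95% interval for each gene, from edgeR; filled points passed an adjusted p of 0.05. The intervals of Kdr and Nrp1 lie below 0 and those of Vegfc and Nrp2 above 0, while those of the other 5 genes include 0.

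Ordered by FPKM, the untreated libraries had Kdr above Flt4, Nrp1, Flt1, Nrp2, Vegfa, Vegfb, Vegfc and Pgf. Nrp1 and Flt1 overlapped in that order (79.2 to 86.2 and 69.7 to 85.2 FPKM), and no other neighbours did. In the treated libraries Flt1 was followed by Nrp2 and Nrp1, and Vegfa by Vegfc and Vegfb. Vegfa and Vegfc overlapped there (9.88 to 12.2 and 9.48 to 11.3 FPKM), as did Kdr with Flt4, Flt1 with Nrp2, and Nrp2 with Nrp1.

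The make-up of each class shifted in every library, by shares of summed FPKM computed after the values were seen and given with no test. Nrp1 held 66.7%, 66.0% and 67.6% of the neuropilin total in untreated replicates 1 to 3 and 41.6%, 42.9% and 44.9% in treated replicates 1 to 3. Neuropilin transcripts were thus mostly Nrp1 in the untreated libraries and mostly Nrp2 in the treated ones. Kdr held 59.7% ± 1.85 of the receptor total untreated and 47.0% ± 0.79 treated, while Flt4 held 27.8% ± 2.93 and 37.9% ± 0.86 (SD, n = 3 each). Vegfc held 17.4% ± 2.41 of the ligand total untreated and 37.7% ± 0.96 treated (SD, n = 3 each), beside Vegfa at 53.0% ± 6.83 and 41.4% ± 3.39. The receptor total itself was 625.6 ± 15.6 FPKM untreated and 462.7 ± 79.1 FPKM treated, and the ligand total 25.6 ± 4.86 and 27.1 ± 2.24 FPKM (SD, n = 3 each).

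**Figure D3:**
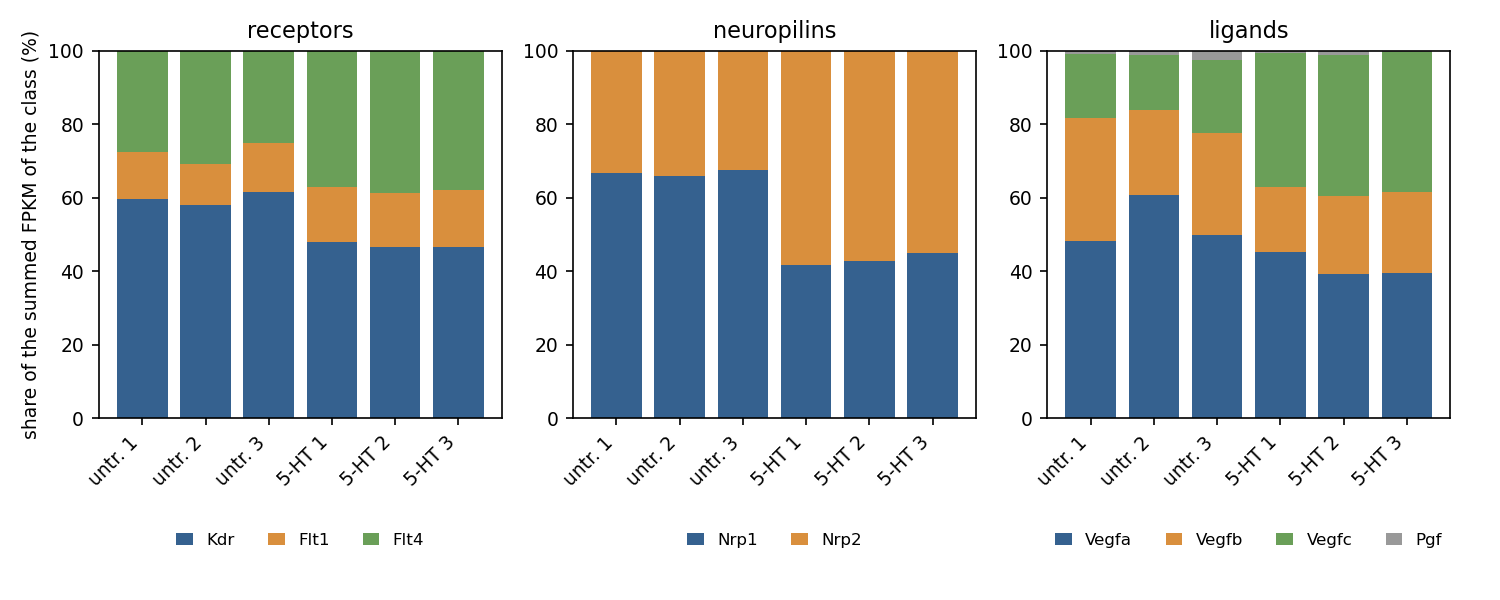
Share of each gene in the summed FPKM of its class (receptors, neuropilins, ligands) in each library, in percent. Nrp2 passes from 32.4 to 34.0% of the neuropilin total in untreated libraries to 55.1 to 58.4% in treated ones, and Vegfc from 15.0 to 19.8% of the ligand total to 36.6 to 38.4%.

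Ratios within a library do not depend on library scaling. The Nrp2 to Nrp1 ratio had values of 0.50, 0.52 and 0.48 among untreated replicates 1 to 3 and of 1.40, 1.33 and 1.23 among treated replicates 1 to 3, a log2 difference of 1.40. The Flt4 to Kdr ratio went from 0.467 ± 0.0635 to 0.807 ± 0.0308 and the Flt1 to Kdr ratio from 0.208 ± 0.0136 to 0.322 ± 0.00967 (SD, n = 3 each), with log2 differences of 0.80 and 0.64. These 3 ratios had groups that did not overlap and an exact two-sided permutation p of 0.1, the smallest that 3 against 3 libraries can give (0.171 after Benjamini-Hochberg adjustment over 12 ratios). The Vegfb to Vegfa ratio overlapped between groups, at 0.541 ± 0.157 and 0.493 ± 0.0922 (exact permutation p = 0.8, n = 3 each, adjusted 0.96). The Vegfc to Vegfa ratio, added after the values were seen, had values of 0.36, 0.25 and 0.40 among untreated replicates 1 to 3 and 0.81, 0.98 and 0.96 in treated replicates 1 to 3. A ratio shows unequal change of its 2 genes, not which of them changed.

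Markers of endothelial cells were abundant in the libraries labelled Kupffer cells. Stab2, a scavenger receptor of sinusoidal endothelium, had 454.7 ± 2.59 FPKM untreated and 315.9 ± 58.3 FPKM treated (SD, n = 3 each). Clec4f, a lectin that marks Kupffer cells, had lower means, 181.6 and 283.8 FPKM, with ranges of 149.9 to 216.6 and 249.7 to 311.1 FPKM. Cd5l and C1qb were the most abundant Kupffer cell markers. Cd5l had means of 213.9 FPKM untreated and 362.0 FPKM treated, the latter above Stab2, and C1qb 235.6 and 309.4 FPKM. In bulk libraries, fewer cells of a type and less RNA per cell cannot be told apart, and which cells gave the reads of the VEGF genes was not tested. Of 20 endothelial markers, 2 rose (Cldn5 and Tal1) and 3 fell (Tek, Ptprb and Erg), calls kept in 1 to 3 of 6 fits that left out a library, with a median log2 change of -0.09. Their summed FPKM ran from 2848 to 2922 in untreated and from 2174 to 2994 in treated libraries, lowest in 5-HT treated replicate 2. Of 15 sinusoidal endothelial markers, 1 rose (Lyve1) and 4 fell (Oit3, Ehd3, Fcgr2b and Plxnc1), with a median log2 change of -0.38, calls of Lyve1 and Ehd3 that held in 6 of 6 such fits and of the other 3 in 1 to 3, and sums from 4841 to 5062 and from 3561 to 4879 FPKM. None of these markers was at 0.

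Against the summed endothelial markers of the same library, Kdr was still lower and Vegfc still higher with 5-HT. Kdr equalled 12.4%, 12.7% and 13.9% of that sum in untreated replicates 1 to 3 and 9.17%, 8.09% and 8.31% in treated replicates 1 to 3. Nrp1 equalled 2.84% ± 0.161 and 1.72% ± 0.125, Nrp2 1.42% ± 0.0454 and 2.28% ± 0.298, and Vegfc 0.152% ± 0.0109 and 0.411% ± 0.102 (SD, n = 3 each). For these 4 genes the groups did not overlap (exact two-sided permutation p = 0.1, the smallest possible, n = 3 each, adjusted 0.171 over 12 ratios). Flt1 equalled 2.71% ± 0.276 and 2.75% ± 0.162 of the sum (exact permutation p = 0.9), and Flt4 6.05% ± 0.619 and 6.87% ± 0.193 (exact permutation p = 0.2), with n = 3 in each group. With the sinusoidal endothelial list as the denominator, the log2 differences of Kdr, Nrp1, Nrp2 and Vegfc were -0.54, -0.65, 0.75 and 1.48, against -0.61, -0.73, 0.68 and 1.40 with the endothelial list. That denominator includes Lyve1, whose mean rose from 257.2 to 886.8 FPKM and so enlarged the treated sums, while 12 of the 15 markers had a log2 difference below 0. The falls of Kdr and Nrp1 relative to the sinusoidal list would thus be smaller without Lyve1, by an amount that was not computed.

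**Figure D4:**
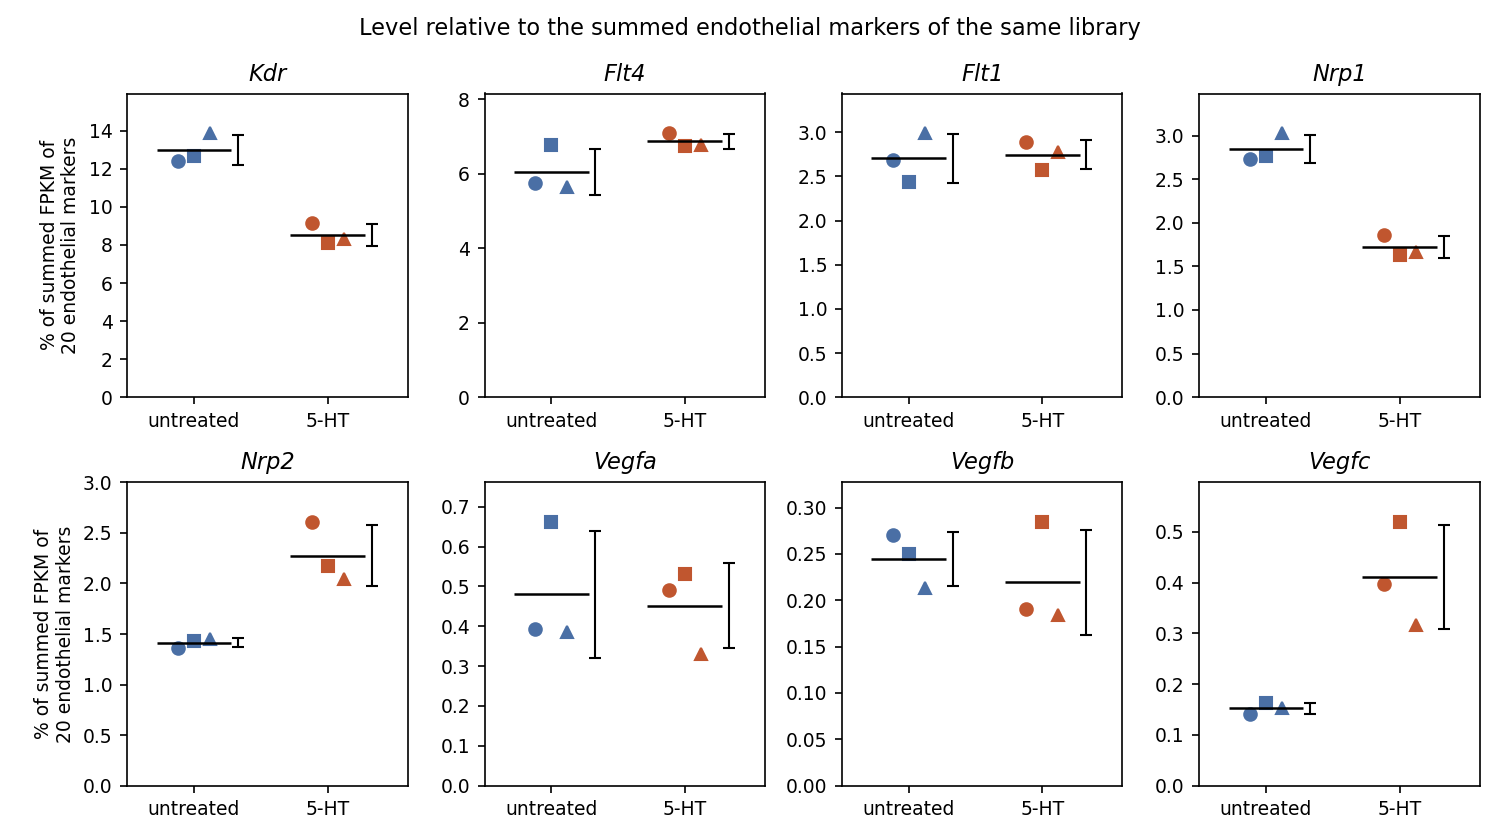
Level of each gene as a percentage of the summed FPKM of 20 endothelial markers in the same library; symbols give the replicate number as in the plot of FPKM by library, lines the mean and error bars the SD. Kdr lies at 12.4 to 13.9% in untreated and 8.09 to 9.17% in treated libraries, while Flt1 overlaps at 2.44 to 2.99% and 2.57 to 2.89%.

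Other cell types also moved with the treatment. Of 17 Kupffer cell markers, 5 rose by edgeR (Adgre1, Marco, Spic, C6 and Cd163, with calls kept in 3, 1, 6, 5 and 4 of 6 fits that left out a library). DESeq2 called 10 higher, and 15 were higher at an unadjusted p under 0.05. None fell by edgeR or DESeq2, nor at that unadjusted p, and 16 of the 17 had a log2 difference above 0 (median 0.47). The summed FPKM of these 17 was 1159 to 1597 untreated and 1814 to 2119 treated. Neutrophil markers rose in 5 of 8 tested genes, with sums from 142 to 173 and from 348 to 913 FPKM, highest in 5-HT treated replicate 2. All 5 (S100a8, S100a9, Csf3r, Cxcr2 and Mmp8) lost their calls without untreated replicate 1 and again without untreated replicate 3 (adjusted p up to 0.0914 by edgeR). Of the markers of neutrophil granules, Ngp and Ltf had log2 differences of -0.81 and -0.33 that did not pass (edgeR adjusted p = 0.231 and 0.649), and Camp, too low to be tested, had 10 to 21 reads in untreated and 1 to 8 in treated libraries. Stellate cell and fibroblast markers fell in 2 of 14 genes (Reln and Col14a1, with calls kept in 5 and 1 of 6 such fits), with sums from 153 to 209 and from 69.4 to 159 FPKM. Of the 14, 13 had a log2 difference below 0 (median -0.92). At an unadjusted p under 0.05, 6 were lower and 0 higher, and DESeq2 called 2 lower and 0 higher. Over treated replicates 1 to 3 the neutrophil sum was 478, 913 and 348 FPKM and Vegfc 9.84, 11.3 and 9.48 FPKM, the same order in both. Over untreated replicates 1 to 3 the sum was 173, 142 and 171 FPKM and Vegfc 4.13, 4.66 and 4.35 FPKM, in opposite orders. The treated order was not particular to neutrophils. The monocyte and other macrophage, cholangiocyte, B and plasma cell, T and NK cell, platelet, and stellate and fibroblast sums shared it. The endothelial, sinusoidal endothelial, lymphatic endothelial, Kupffer cell and hepatocyte sums did not. The monocyte and cholangiocyte sums also had the untreated order of Vegfc. The former was 423, 1306 and 452 FPKM in untreated replicates 1 to 3. The part of these cell types in the changes of Vegfc, Kdr and Nrp1 was not tested.

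The genes whose pattern over the 6 libraries was nearest to that of Kdr, by root mean square difference of centred, library-scaled log2 counts among 7475 genes, were Ptprb (0.0462), Erg (0.0472) and Enpp6 (0.0487). Ptprb encodes a receptor phosphatase of endothelium that acts on Tie2 and VEGFR2, and Erg an endothelial transcription factor. Those nearest to Nrp1 were Tfpi, a coagulation inhibitor made by endothelium (0.025), Plxnc1, a semaphorin receptor (0.0463), and Ptprb (0.0519). Vegfc was nearest to Siglece, a sialic acid receptor of myeloid cells (0.091), Pilrb2 (0.106) and Hsp90b1, a chaperone of the endoplasmic reticulum (0.108). Mean levels of Siglece were 12.6 and 29.0 FPKM (log2 1.21; adjusted p = 0.00164 by edgeR), and those of Tfpi 90.1 and 47.1 FPKM (log2 -0.93; adjusted p = 0.0109 by edgeR).

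Among 36 genes of signalling below the VEGF receptors, 1 rose, 2 fell and 33 did not pass by edgeR (median log2 -0.01). Over all tested genes 4.55% were called higher and 3.19% lower, 7.74% in either direction. These shares are to be set beside the counts of this and the other lists. Plcg1, the phospholipase that VEGFR2 activates, fell from 30.6 ± 0.806 to 21.5 ± 2.73 FPKM (log2 -0.50; adjusted p = 0.0407 by edgeR), a call kept in 1 of 6 fits that left out a library. Ppp3ca, a calcineurin subunit, fell from 14.5 ± 1.92 to 8.81 ± 1.0 FPKM (log2 -0.71), a call kept in 2 of those 6 fits. Hspb1, a small heat shock protein phosphorylated downstream of VEGFR2, rose from 24.8 ± 9.02 to 64.6 ± 11.7 FPKM (log2 1.38; adjusted p = 0.0247 by edgeR) and kept its call in 4 of 6, losing it without untreated replicate 3 or 5-HT treated replicate 1 (SD, n = 3 each throughout). Cdc42 and Rac1, the most abundant genes of the list, had log2 differences within the spread between libraries, with edgeR adjusted p = 0.96 and 0.498.

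Receptor partners and regulators held more rises: of 27, 8 rose, 1 fell and 18 did not pass (median log2 0.17). Itgb3, the integrin chain that pairs with the alpha-v chain and works with VEGFR2, rose from 19.8 ± 2.02 to 73.3 ± 15.4 FPKM (log2 1.90; adjusted p = 0.00165 by edgeR). Spred1 and Spry4, inhibitors of the Ras and ERK pathway, rose with log2 changes of 1.24 and 1.42 (SE 0.11 and 0.15, edgeR adjusted p = 0.00165 and 0.00298). The calls of these 3 genes held in every fit that left out a library. Cd93, an endothelial and myeloid surface protein, rose from 98.6 ± 10.8 to 187.4 ± 20.4 FPKM (log2 0.94), a call lost without untreated replicate 1 or 3 (adjusted p up to 0.0511 by edgeR). The other 4 that rose, Ptpn1, Epn2, Dab2 and Itgb1, had log2 changes from 0.46 to 0.70 and kept their calls in 1 to 3 of 6 such fits. Ptprb fell from 492.0 ± 24.6 to 277.9 ± 57.0 FPKM (log2 -0.82; adjusted p = 0.0318 by edgeR), a call lost without the same 3 libraries as that of Kdr. Cdh5, the endothelial cadherin that binds VEGFR2, was at 309.4 ± 13.5 and 386.7 ± 30.3 FPKM and did not pass (log2 0.33; adjusted p = 0.107 by edgeR; SD, n = 3 each).

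Class 3 semaphorins bind the neuropilins and signal with them through A-type plexins; the list of semaphorins, plexins and L1cam also holds members not known for binding neuropilins, Sema6d and Plxnc1 among them. Of 21 tested, Sema6d and Plxna2 rose and Plxnc1 and Plxna4 fell (median log2 -0.01). Sema6d went from 14.9 ± 1.39 to 37.5 ± 6.44 FPKM (log2 1.34; adjusted p = 0.0031 by edgeR), with a call that held in every fit that left out a library. Plxnc1 went from 188.8 ± 9.84 to 99.3 ± 19.5 FPKM (log2 -0.92; adjusted p = 0.0167 by edgeR) and lost its call without the same 3 libraries as Nrp1. Plxna2 and Plxna4, a pair of partners of the neuropilins, had log2 changes of 0.73 and -0.80, with calls kept in 1 and 2 of 6 such fits. Plxnd1, an endothelial plexin, had a log2 difference of 0.49 just outside the threshold (edgeR adjusted p = 0.0506).

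Genes known to be induced by VEGF in endothelium moved in both directions: of 25, 8 rose, 3 fell and 14 did not pass (median log2 0.16). Angpt2, the Tie2 ligand of activated endothelium, rose 4.99-fold, from 5.08 ± 0.694 to 25.2 ± 4.17 FPKM (log2 2.32 with SE 0.15; adjusted p = 0.00107 by edgeR). Dll4, a Notch ligand of tip cells, rose from 17.7 ± 0.423 to 38.4 ± 3.6 FPKM (log2 1.13), Esm1, a secreted proteoglycan of tip cells, from 6.07 ± 0.953 to 16.8 ± 2.25 FPKM (log2 1.48) and Sele, an adhesion molecule that inflammatory cytokines also induce, from 2.47 ± 0.246 to 9.77 ± 1.99 FPKM (log2 1.99). The calls of these 4 genes held in every fit that left out a library. The other 4 that rose were Hlx, Hhex, Plaur and Dusp4 (log2 1.09, 1.24, 0.75 and 0.90), and the 3 that fell were Apln (log2 -2.22), Aplnr (log2 -2.62, at under 0.43 FPKM in either group's mean) and Nr4a3 (log2 -0.63), named after their values were seen except Apln. These 7 kept their calls in 1 to 4 of the 6 fits that left out a library. Dusp1 and Egr1, early response genes and the most abundant of the list, had edgeR adjusted p = 0.831 and 0.889.

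**Figure D5:**
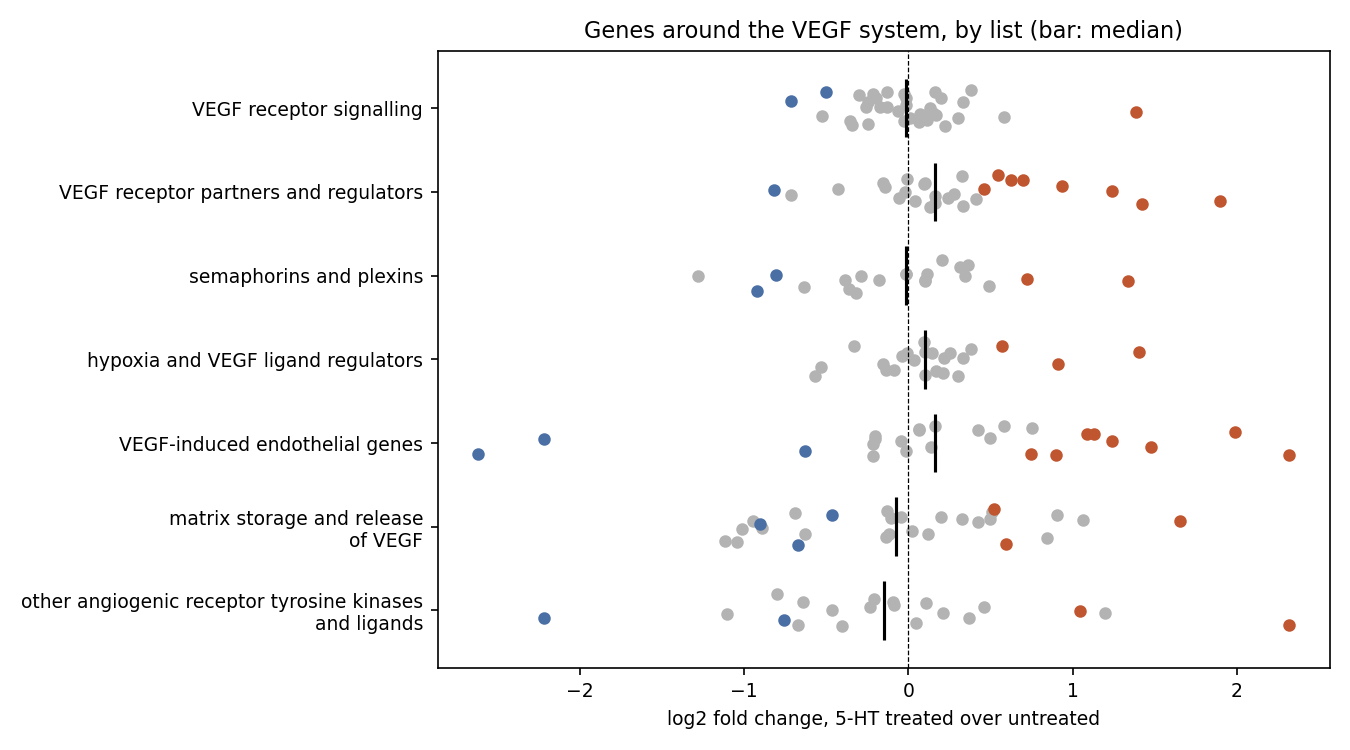
Log2 fold change of each tested gene in 7 lists around the VEGF system; orange points passed an adjusted p of 0.05 as higher, blue as lower and grey did not pass, and the bar marks the list's median. Medians lie between -0.15 and 0.17, with Angpt2 the farthest to the right at 2.32 in the 2 lists that hold it.

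Regulators of the ligand genes and hypoxia-response genes numbered 23, of which 3 rose (P4ha1, Slc2a1 and Stat3) and none fell by edgeR. At an unadjusted p under 0.05, 6 were higher and 1 lower, and DESeq2 called 4 higher and 1 lower. P4ha1, a collagen prolyl hydroxylase, went from 23.4 ± 1.11 to 43.9 ± 4.74 FPKM (log2 0.91; adjusted p = 0.00298 by edgeR), and Slc2a1, the glucose transporter GLUT1, from 4.72 ± 1.31 to 12.4 ± 1.99 FPKM (log2 1.40; adjusted p = 0.00838 by edgeR). Stat3 had a log2 change of 0.57, and it and Slc2a1 lost their calls without untreated replicate 1 or 3 (adjusted p up to 0.0655 and 0.0527 by edgeR). The median log2 change of the list was 0.10. Epas1, the hypoxia-inducible factor gene of endothelium, was at 185.9 ± 3.12 and 124.9 ± 21.2 FPKM without passing (log2 -0.57; adjusted p = 0.0547 by edgeR; SD, n = 3 each). It passed in 5 of 15 alternative fits, DESeq2 among them.

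Of 28 genes for the storage and release of VEGF in the matrix, 3 rose (Sdc1, Hs6st1 and Mmp9) and 3 fell (Hspg2, Gpc1 and Sparc), with a median log2 change of -0.07. Sparc, a matrix protein that binds growth factors, fell from 279.6 ± 17.1 to 202.1 ± 14.0 FPKM (log2 -0.46) and Gpc1, a heparan sulfate proteoglycan, from 5.62 ± 0.837 to 2.99 ± 0.216 FPKM (log2 -0.90). Hs6st1, a heparan sulfate sulfotransferase, rose with a log2 change of 0.60. Gpc1 and Hs6st1 lost their calls without the same 3 libraries as Kdr, and Sparc, Hspg2 and Sdc1 kept theirs in 1, 1 and 0 of 6 such fits. Mmp9, a protease that neutrophils also store, rose from 3.22 ± 0.934 to 10.1 ± 5.34 FPKM (log2 1.65; adjusted p = 0.0413 by edgeR; SD, n = 3 each), a call kept in 7 of 15 alternative fits and in 2 of the 6 that left out a library, while neutrophil markers were higher in the same libraries. Among 20 other angiogenic ligands and receptor tyrosine kinases, Angpt2 and Pdgfb rose and Tek and Apln fell (median log2 -0.15). Pdgfb, which recruits pericytes, rose from 5.87 ± 0.896 to 12.1 ± 0.175 FPKM (log2 1.05), and Tek, the Tie2 receptor gene, fell from 214.5 ± 16.1 to 126.2 ± 29.1 FPKM (log2 -0.76; adjusted p = 0.0475 by edgeR; SD, n = 3 each), a call kept in 1 of 6 fits that left out a library.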

How the data were processed

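Libraries of mRNA, from RNA isolated with TRIzol, were read on an Illumina NovaSeq instrument, per the labels' protocols. The authors deposited, per the file headers, 1 raw read count per gene and library and 1 FPKM value beside it. Tools and build in the submitters' processing notes are featureCounts 2.0.1, HISAT2 2.2.1 and mm10, without their roles; the strand setting is not stated there. Of the deposited FPKM values of at least 1, 100% lay within 0.5% or rounding of values recomputed from the counts, the exonic length and the library total. Total counts ran from 15390956 to 19050039 per library. Positions are those of GENCODE M21 (GRCm38) by identifier, since start and end in the table equalled these for only 1472 of 52073 matched genes. In that annotation Nrp1 overlaps Mir1903, which had 0 counts, and Nrp2 overlaps Gm29083 and Gm37121, which had 21 and 116 counts in all against 59991 for Nrp2.

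Counts were tested in R 4.3.3 with the two-sided quasi-likelihood test of edgeR 4.0.16 after filterByExpr and TMM scaling, adjusted by Benjamini-Hochberg over 16641 genes at a threshold of 0.05. The standard error is the log2 change over the square root of F. The steps were tested on simulated data, with 67, 67 and 66 genes set to change 1.5-, 2- and 4-fold. Of these, 8, 31 and 56 were recovered, and 10 of 105 calls were false. Most changes of 1.5-fold were thus missed in the simulation. It changed far fewer genes than the 1288 called in these data, which makes the adjusted threshold stricter, so these rates do not carry over directly. A gene that did not pass was still not shown to be unchanged. Ratios were compared with exact permutation tests (scipy 1.17.1). Alternatives used DESeq2 1.42.0, limma 3.58.1 on log2(FPKM + 0.1, 1 or 5), other filters and scalings, a replicate block, and fits leaving out each library. The VEGF genes and the lists were chosen with earlier results of these data known. All VEGF genes are named. Further names were drawn from the called genes of smallest p (up to 4) and the 2 most abundant genes of each list around VEGF. The 2 most abundant of each cell type list were also eligible, as were the 3 genes nearest to each called VEGF gene with a mean of at least 5 FPKM. Not every gene that these rules select is named, and others were named after their values were seen.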

Additional observations from a re-analysis of the deposited data

How the results depend on the processing

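Over 15 alternative fits, Vegfc remained higher in each, and Kdr and Nrp1 remained lower in each and past the threshold in 12. Members called higher numbered 2 in place of 1 with no filter and with DESeq2, the addition being Nrp2, and from 1 to 2 when a library was left out; members called lower ran from 0 to 2 in those fits. All tested genes called numbered 757 higher and 531 lower, 1242 and 1022 with DESeq2, and 218 to 672 and 111 to 675 without 1 library. Leaving out untreated replicate 1 gave 218 and 111, leaving out untreated replicate 3 gave 220 and 116, and 5-HT treated replicate 1 left 338 and 222; Kdr and Nrp1 lost their calls in these 3 fits. The other 3 fits of that size gave 663 to 672 higher and 491 to 675 lower. Called genes of the lists around VEGF numbered 26 higher and 12 lower of 175 tested, against 4.55% and 3.19% of all tested genes. DESeq2 called 39 higher and 19 lower, and fits without 1 library 10 to 27 higher and 0 to 15 lower. Of the 26 and 12, 10 and 0 kept their calls whichever library was left out. The cause of these moves was not tested. Scaling moved the median of all genes by less than 0.1 (log2) and no member's call. Pairing by the labels' replicate numbers was not seen: deviations of same-numbered libraries correlated at 0.082, 0.099 and -0.038 over genes. Those of differently numbered libraries correlated at -0.156 to 0.107. With groups of 3 libraries this check cannot exclude a pairing. A replicate block called 542 higher and 354 lower genes, with the same 3 members past the threshold. Groups of 3 are below the size at which single values were tested for outliers. Pgf had 5 to 32 reads per library, and counting error and the spread between libraries were not separated in its interval.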

Other observations

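Of the 15 sinusoidal endothelial markers, 12 had a log2 difference below 0 and 3 above; 8 were lower and 1 higher at an unadjusted p under 0.05, and DESeq2 called 7 lower and 1 higher. Lyve1, a hyaluronan receptor, rose from 257.2 ± 10.2 to 886.8 ± 120.0 FPKM (log2 1.79 with SE 0.14; adjusted p = 0.00138 by edgeR), while Ehd3, a membrane trafficking gene, fell from 415.7 ± 12.1 to 126.7 ± 34.5 FPKM (log2 -1.71; adjusted p = 0.00401 by edgeR) and Oit3 fell from 618.2 ± 8.88 to 368.5 ± 61.9 FPKM (log2 -0.74; SD, n = 3 each). Clec4g, the most abundant of that list, was at 691.2 ± 27.9 and 535.6 ± 110.0 FPKM and did not pass (edgeR adjusted p = 0.223). The calls of Lyve1 and Ehd3 held whichever library was left out, and that of Oit3 in 3 of 6 such fits. Ehd3 and Oit3 were chosen after their values were seen.

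Untreated replicate 2, with the highest Vegfa at 18.9 FPKM, also had the highest Spp1, at 924.5 FPKM against 196.8 and 220.7 in untreated replicates 1 and 3. Among the treated libraries, 5-HT treated replicate 2 had the highest Spp1, at 613.7 FPKM, with Vegfa at 11.6 FPKM. The summed FPKM of the list of monocyte and other macrophage markers, which includes Spp1, was 1306 in untreated replicate 2 and 423 and 452 in untreated replicates 1 and 3. In that list 0 of 11 genes passed by edgeR, with 2 higher at an unadjusted p under 0.05 and 1 higher by DESeq2. Spp1 is in the cholangiocyte list too, whose sum was likewise highest in untreated replicate 2, at 976 FPKM against 217 in untreated replicate 1. Epcam, of the same list, had 29.7 FPKM in untreated replicate 2 and 6.54 and 13.6 FPKM in untreated replicates 1 and 3. Which cells gave the higher Vegfa and Spp1 of untreated replicate 2 was not tested. The hepatocyte, cholangiocyte, B and plasma cell, T and NK cell and platelet lists also had 0 genes past the threshold by edgeR. At an unadjusted p under 0.05 they held 0, 0, 2, 1 and 1 genes higher and 2, 0, 0, 1 and 1 lower, and DESeq2 called 0, 0, 1, 0 and 0 higher and 2, 0, 0, 0 and 1 lower. The lymphatic endothelial list had 1 gene lower by edgeR (Reln, which is also in the stellate and fibroblast list) and 1 lower by DESeq2, with none higher by either. At an unadjusted p under 0.05 it held 2 genes lower and 0 higher.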
